A study of Sus scrofa with 180 samples.

Results

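Genes of glycogen breakdown and glycolysis were examined in 2 muscles of 90 pigs, Longissimus (LM) and Semimembranosus (SM), each hybridized to an array of its own. The genes were PYGM, PHKA1, PHKB, ALDOA and PCK1. Their probes were found by symbol in the study's supplementary lists of probes that differed between the muscles, used here only as a map from probe to gene, which gave 8 probes of 15198 on the array. PHKA1 had 3 probes, PHKB had 2, and PYGM, ALDOA and PCK1 had 1 each. All 8 came from the list of probes higher in LM, so their difference between the muscles was fixed by the choice of list and is given as a description without a test. Every one of the 8 passed the filter on dim spots, as did 10987 probes in all.

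The pigs were females and barrows of an F2 intercross between 2 terminal sire lines, FH016 (Pietrain type) and FH019 (a synthetic line with Duroc, Large White and Hampshire founders), and formed 2 half-sib families, so that the pigs were not fully independent animals. All were homozygous NN at the HAL locus and rn+rn+ at the RN locus, so neither group carried the known halothane or acid-meat allele. Both muscles of a carcass were sampled from the superficial region with a trocar shortly after death. The RNA was labelled with Cy3 and hybridized to a custom pig muscle array of 60-base probes. The median processed signal (brightness of a spot after background subtraction) of an array lay between 171 and 304 in LM and between 105 and 252 in SM, and the share of probes well above background lay between 69.2% and 99.9% in LM and between 63.4% and 83.3% in SM. LM arrays were on 21 slides and SM arrays on 14 other slides, read on different days, so muscle and slide cannot be told apart in any difference between LM and SM. All comparisons within a muscle are free of that overlap. Signals are given on the log2 scale with the median of each array set to 0, so that 1 unit is a doubling.

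Muscle glycogen is broken down by glycogen phosphorylase, whose muscle form is PYGM. Phosphorylase kinase switches phosphorylase on when calcium rises or adrenaline signals, and it is a large enzyme built from regulatory alpha subunits (PHKA1 is the muscle form), regulatory beta subunits (PHKB), a catalytic gamma subunit and calmodulin. The glucose phosphate that is released enters glycolysis, in which aldolase A (ALDOA) splits fructose 1,6-bisphosphate. PCK1 is the cytosolic phosphoenolpyruvate carboxykinase, which belongs to gluconeogenesis and glyceroneogenesis and is best known from liver, kidney and adipose tissue. Glycogen stored in muscle at slaughter is the source of post-mortem lactate, which sets the fall of pH in meat.

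The sequences of the 8 probes are shown because each signal is that of 1 oligonucleotide. Capitals mark, in the PYGM probe, the arms of an inverted repeat and, in the ALDOA probe, the bases that lie in 12-base words found in 5 or more other probes of the array on either strand. They are printed 5′ to 3′ as the scanner output gives them. Their genome position and their orientation against the messenger RNA were not determined here, so every value below is the signal of a probe with that name, and whether it reads the sense transcript was not tested.
PYGM CF365721.1_474: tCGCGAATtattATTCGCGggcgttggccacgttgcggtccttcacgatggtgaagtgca
PHKA1 AW670614.1_232: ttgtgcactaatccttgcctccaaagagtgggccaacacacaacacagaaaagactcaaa
PHKA1 AW670614.1_466: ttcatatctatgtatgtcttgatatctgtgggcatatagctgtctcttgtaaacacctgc
PHKA1 CA779886.1_993: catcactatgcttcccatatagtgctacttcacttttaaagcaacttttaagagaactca
PHKB BW974780.1_714: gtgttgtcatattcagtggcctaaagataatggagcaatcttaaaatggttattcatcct
PHKB CK468162.1_596: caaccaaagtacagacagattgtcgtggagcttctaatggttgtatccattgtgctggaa
ALDOA F22982.1.s_594: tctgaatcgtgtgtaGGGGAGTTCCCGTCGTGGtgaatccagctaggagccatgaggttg
PCK1 BX921148.1_264: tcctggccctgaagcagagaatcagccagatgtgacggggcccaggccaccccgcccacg

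The probes differed in composition. The G and C share was 35.0% in PHKB BW974780.1_714 and in PHKA1 CA779886.1_993, and 68.3% in PCK1. The PYGM probe held a 7-base inverted repeat with a 4-base loop, a feature of 1.90% of all probes on the array when repeats of 7 or more bases with loops of 3 to 8 bases were counted. A 12-base word of the ALDOA probe occurred on the same strand of 43 other probes and on the opposite strand of 46. For the other 7 probes these numbers were 2 to 5 and 1 to 4. An index of C-rich probes was made for each array (at least 8 C among the first 15 bases, against at most 2). It had a median of -0.37 in LM and 0.36 in SM, so that it differed between the muscles too. PCK1, with 6 C in those bases, belongs to neither set. PYGM, PHKA1 AW670614.1_466, PHKB BW974780.1_714 and ALDOA, with 2 each, are in the second set.

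The signals of all 8 probes were higher on average in LM than in SM, and the size ran from 1.17-fold for PYGM to 5.16-fold for a PHKB probe. Among all probes tested, 35.7% were called higher in LM and 47.7% higher in SM (limma, adjusted p of 0.05 or less), and since the lists hold only called probes nothing is read from the members' share. Adipocyte markers moved the other way, with 4 of 4 named probes higher in SM. The mean of a list was taken over the probes with a value on an array. Its extremes depend on missing probes, so its median over arrays is given. For adipocyte markers the median was 0.18 in LM and 1.14 in SM. Leukocyte markers were higher in SM for 3 of 4 probes, with medians of -1.67 in LM and -0.98 in SM. Endothelial (6 of 6), fibroblast (4 of 4) and red blood cell (3 of 3, all of HBA2) probes were also higher in SM. Their medians were 0.24, 0.14 and 1.60 in LM and 0.90, 0.96 and 2.63 in SM. Some listed markers had no named probe here (among them FABP4, LEP, PECAM1, COL1A1, COL3A1, DCN, HBB and ALAS2), and none of the named ones was absent from the probes tested. The part of these cells in the differences was not tested. In whole muscle, fewer cells of a type and less RNA per cell cannot be told apart. The muscle identity of both groups was plain from ACTA1, the skeletal actin, whose probe PMUS1-019C_251 read 9.46 in LM and 10.16 in SM.

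**Figure D1:**
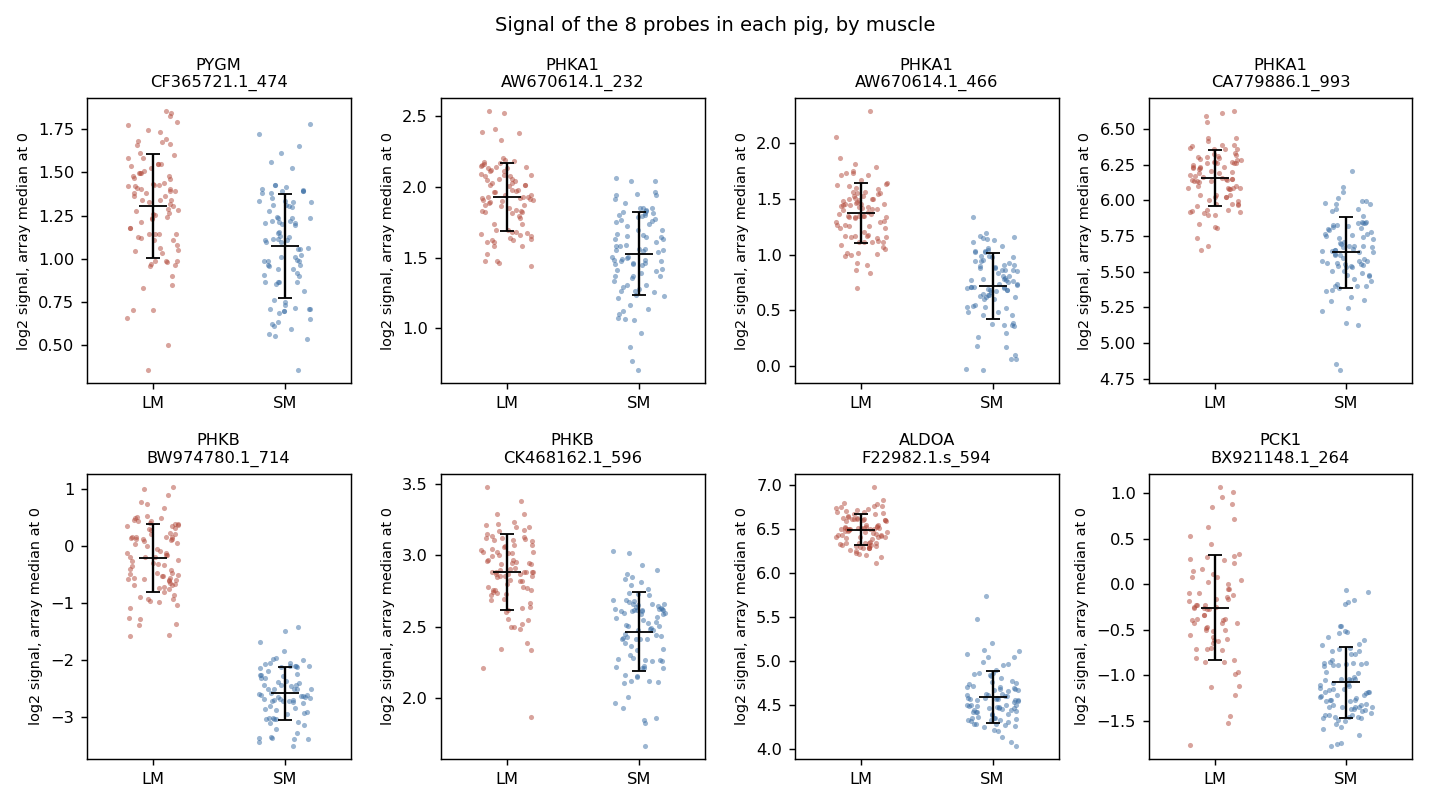
Log2 signal (array median at 0) of each of the 8 probes in LM and SM; each point is 1 pig, and the bars are the mean ± SD. Of the 8 probes, only ALDOA shows no overlap between the muscles, with 6.11 as its lowest value in LM and 5.74 as its highest in SM. PYGM overlaps over most of its range. Overlap was not counted for the other probes of the array.

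The alpha subunit gave 3 readings of 1 gene. PHKA1 AW670614.1_232 ranged in LM from 1.44 over a median of 1.93 to 2.54 (89 pigs) and in SM from 0.70 over 1.55 to 2.06 (89 pigs). Its muscle means differed by 0.40 ± 0.040 (SE), or 1.32-fold, and 76 of 88 pigs were higher in LM. For PHKA1 AW670614.1_466 the range was 0.70 to 2.29 with a median of 1.37 in LM (90 pigs), and -0.04 to 1.34 with a median of 0.74 in SM (89 pigs). The difference was 0.65 ± 0.042 (SE), or 1.57-fold, in the same direction in 89 of 89 pigs. PHKA1 CA779886.1_993, with a median processed signal of 36096 in LM and 21218 in SM, ranged from 5.65 to 6.63 in LM (90 pigs) and from 4.81 to 6.21 in SM (89 pigs). It differed by 0.52 ± 0.034 (SE), or 1.44-fold, and was higher in LM in 89 of 89 pigs. The muscles overlapped for all 3 probes. In a fit that included the C-rich index the differences were 0.27, 0.43 and 0.42 in the same order.

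The beta subunit gave readings of unlike size. PHKB CK468162.1_596 ranged from 1.87 over a median of 2.89 to 3.48 in LM (89 pigs) and from 1.66 over 2.51 to 3.03 in SM (89 pigs). The difference was 0.42 ± 0.041 (SE), or 1.34-fold, and 77 of 88 pigs were higher in LM, a difference between those of the first and the third PHKA1 probe. PHKB BW974780.1_714 was a dim probe, with a median processed signal of 464 in LM and 70.1 in SM, where 11 of 90 spots were not well above background. It ranged from -1.58 over -0.19 to 1.04 in LM (90 pigs) and from -3.50 over -2.61 to -1.41 in SM (78 pigs). The difference was 2.37 ± 0.083 (SE), or 5.16-fold, and every one of 78 pigs was higher in LM. It stood 41st of 10987 probes by size of the LM excess, against 1885th for the other PHKB probe. After normexp background correction its difference was 1.51. In a fit that included the C-rich index, that of PHKB CK468162.1_596 was 0.22.

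The PYGM probe had the smallest difference on this scale. PYGM ranged from 0.35 over a median of 1.34 to 1.86 in LM (90 pigs) and from 0.36 over 1.1 to 1.78 in SM (90 pigs), so that the muscles overlapped over most of their range. The difference was 0.23 ± 0.045 (SE), or 1.17-fold, with 68 of 90 pigs higher in LM. It was 0.56 in a fit that included the C-rich index, larger there than for the PHKA1 probes and PHKB CK468162.1_596, and 0.11 with dim probes kept. Between the 18 LM slides with 3 or more arrays, slide means of PYGM ran from 0.94 to 1.67, a spread wider than the difference between the muscles.

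The ALDOA probe was bright and fully separated. In LM it ranged from 6.11 over a median of 6.50 to 6.98 (87 pigs) and in SM from 4.04 over 4.56 to 5.74 (90 pigs). The difference was 1.90 ± 0.036 (SE), or 3.74-fold, and each of 87 pigs was higher in LM. ALDOA stood 165th among all probes tested by size of the LM excess. How many of those probes also had no overlap between the muscles was not counted, so the separation does not set ALDOA apart from them. The PCK1 probe ranged from -1.77 over -0.26 to 1.07 in LM and from -1.78 over -1.15 to -0.06 in SM (90 pigs). In LM 13 spots were set aside as not uniform, 1 of them also saturated, which left 77 pigs. PCK1 differed by 0.82 ± 0.075 (SE), or 1.77-fold, with 72 of 77 pigs higher in LM. In a fit that included the C-rich index its difference was 1.66.

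**Figure D2:**
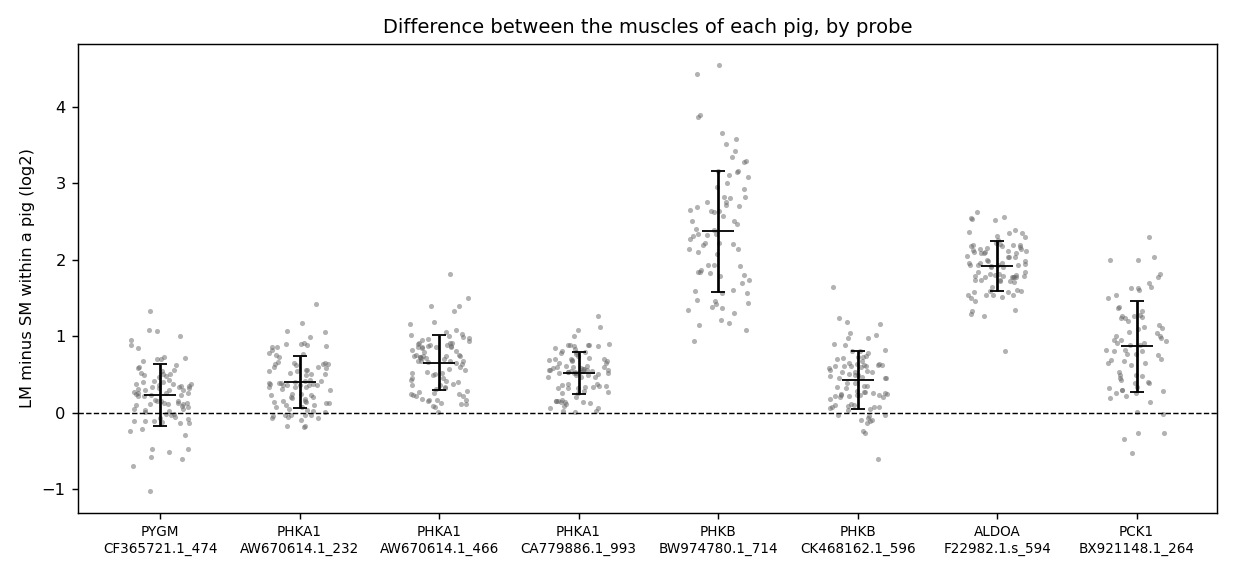
LM minus SM within each pig on the log2 scale for the 8 probes; each point is 1 pig, the bars are the mean ± SD, and the dashed line is no difference. ALDOA and PHKB BW974780.1_714 lie wholly above 0, with lowest values of 0.80 and 0.93, while PYGM runs from -1.03 to 1.32.

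The other genes of the same pathways did not share a single direction. Of 83 genes listed, 40 genes besides the members were named and tested with 52 probes, of which 25 were called higher in LM and 26 higher in SM, and 1 was not called. The lists name mostly probes that the study had called, so these counts describe only the named probes. For glycogen breakdown, 5 of the 8 probes outside the members were higher in LM and 3 in SM. PHKA2, the liver form of the alpha subunit, was higher in LM by 0.41 ± 0.070 (SE), and CALM3, a calmodulin gene, by 0.37 ± 0.061 (SE). PYGB, the brain form of phosphorylase, was lower in LM by -0.46 ± 0.050 (SE), and both probes of PGM5, a phosphoglucomutase relative without known enzyme activity, by -0.54.

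For glycogen synthesis and its control, 7 of 10 probes were higher in LM and 3 in SM. GYS1, muscle glycogen synthase, was lower in LM at both probes, by -0.59 ± 0.043 and -0.51 ± 0.041 (SE). PPP1R3A, the muscle subunit that brings protein phosphatase 1 to glycogen, was higher in LM by 1.47 ± 0.067 (SE). All 3 probes of STBD1, a glycogen-binding protein of the lysosomal route, were higher in LM, by 0.32 to 0.55. In glycolysis, 5 of 16 probes besides ALDOA were higher in LM and 11 were higher in SM, against the direction of the ALDOA probe. Listed glycolysis genes without a named probe here included HK2, GPI, PFKM, PGK1, PGAM2, ENO3, PKM and LDHA. The named probes thus give no direction for muscle glycolysis as a whole. Higher in SM were ALDOC (log2 difference -1.32 ± 0.105 SE), HK1 (-1.34 ± 0.061), PFKL (-0.85 ± 0.044), ENO1 (-0.59 ± 0.040), GAPDH (-0.41 ± 0.051) and TPI1 (-0.30 ± 0.046), while the 3 BPGM probes were higher in LM by 0.32 to 0.43. BPGM makes 2,3-bisphosphoglycerate from a glycolytic intermediate. FBP1 and PC, which act beside PCK1 in gluconeogenesis, were both higher in SM, by -1.16 ± 0.079 and -0.55 ± 0.044 (SE).

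For AMPK, the energy sensor whose gamma 3 subunit PRKAG3 is the RN gene, 5 of 7 probes were higher in LM, 1 was higher in SM and 1 was not called. PRKAG3 was higher in LM by 0.39 ± 0.165 (SE) and varied widely between pigs, with an SD of 1.01 in LM and 1.22 in SM. Of 9 probes for glucose and lactate transport and pyruvate entry, 3 were higher in LM and 6 in SM. Of the lactate transporters, SLC16A1 was higher in LM by 1.69 ± 0.047 (SE) and SLC16A3 was higher in SM by -0.42 ± 0.044 (SE). SLC2A4, the insulin-responsive glucose transporter, was higher in SM by -0.42 ± 0.040 (SE). Median differences were 0.37 for the glycogen breakdown list (members included), 0.42 for glycogen synthesis, -0.41 for glycolysis and -0.42 for transport, beside -0.07 over all probes tested.

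The next question was whether the members varied together from pig to pig within a muscle, a measure that the choice of probes did not use. Across the 28 pairs of the 8 probes in each muscle, 12 pairs in LM and 10 in SM had a correlation past an adjusted p of 0.05 (100000 permutations of the pigs, two-sided, Benjamini-Hochberg over the 56 tests). In LM 8 of the 12 were positive and 4 negative, and in SM all 10 were positive. With slide means subtracted, 14 and 11 pairs passed. In each muscle 3 of the passing pairs were PHKA1 probes with each other, which share 1 gene name. Another 3 were PHKB CK468162.1_596 with the PHKA1 probes. The share of all probe pairs that would pass was not counted. Among all probes tested, 6.4% to 19.5% had an r of 0.3 or more with a given member probe. The smallest p that the permutations can give is 1e-05, which becomes 4.67e-05 after adjustment.

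Kinase subunits formed the clearest group. The 3 PHKA1 probes followed each other in LM with r of 0.77 to 0.91 (rho 0.73 to 0.91, 89 to 90 pigs) and in SM with r of 0.79 to 0.90 (rho 0.75 to 0.88, 89 pigs), each at the smallest adjusted p. PHKB CK468162.1_596 followed the PHKA1 probes almost as closely, with r of 0.57 to 0.81 in LM (rho 0.54 to 0.80, 89 pigs) and of 0.74 to 0.83 in SM (rho 0.74 to 0.83, 89 pigs), again each at an adjusted permutation p of 4.67e-05. Of all probes tested, 7.01% in LM and 7.47% in SM had an r of 0.3 or more with PHKA1 AW670614.1_232, 11.3% and 7.76% with PHKA1 AW670614.1_466, and 7.96% and 6.69% with PHKA1 CA779886.1_993. With PHKB CK468162.1_596 these shares were 10.4% and 6.4%. These correlations stayed at 0.69 to 0.93 in LM and 0.73 to 0.92 in SM when slide means were subtracted. Without the 2 pigs farthest from the median they were 0.53 to 0.90 and 0.74 to 0.88. LM arrays read with each of the 2 versions of the scanner software gave 0.66 to 0.91 and 0.49 to 0.92.

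The second PHKB probe was not part of that group. PHKB BW974780.1_714 had an r of -0.02 with PHKB CK468162.1_596 in LM (rho 0.06, 89 pigs, adjusted permutation p of 0.894 for r and 0.692 for rho) and of 0.14 in SM (rho 0.17, 77 pigs, adjusted permutation p of 0.306 and 0.221). With slide means subtracted the values were 0.05 and 0.09, and without the 2 farthest pigs 0.01 and 0.15. Its r with the PHKA1 probes lay between -0.09 and 0.07 in LM and between 0.16 and 0.20 in SM, none past an adjusted p of 0.05. Of all probes, 9.84% in LM and 8.25% in SM had an r of 0.3 or more with it. The 2 probes that carry the PHKB name thus differed in the size of the muscle difference and in the pigs that were high or low.

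**Figure D3:**
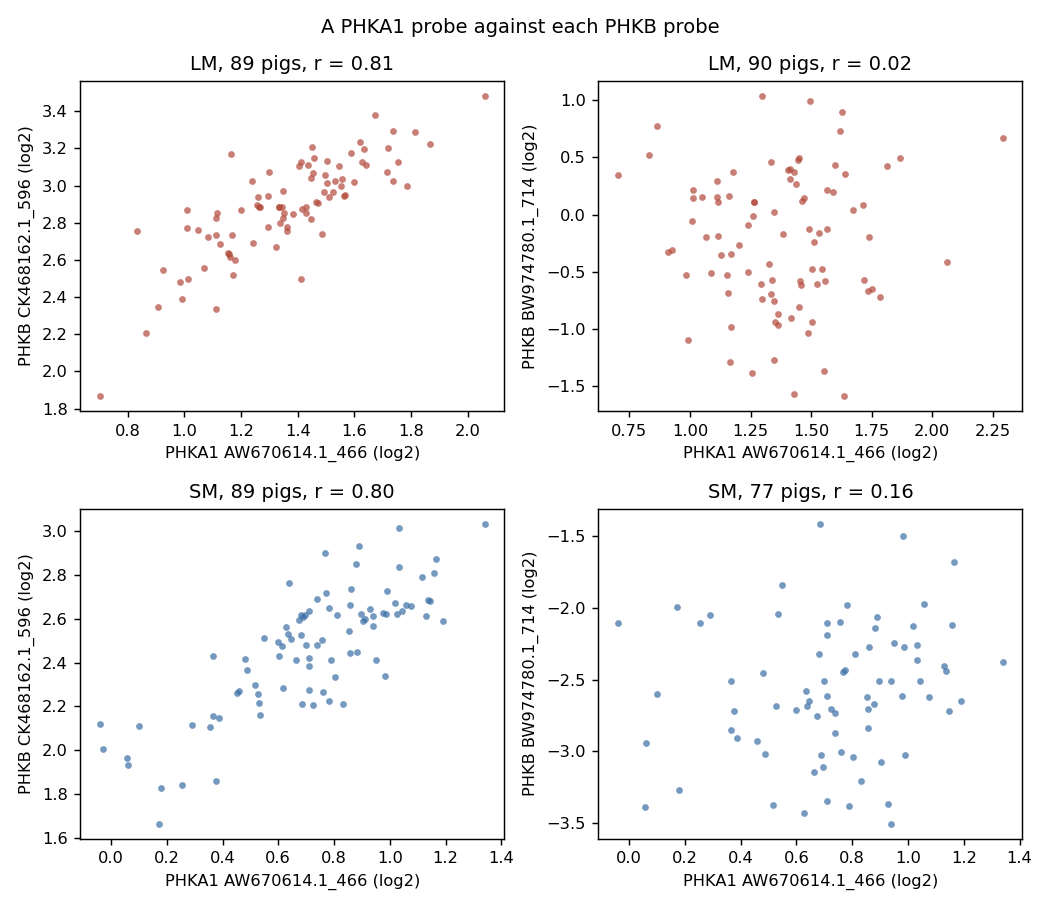
Log2 signal of a PHKA1 probe (x axis) against each PHKB probe (y axis) in LM and SM; each point is 1 pig. PHKB CK468162.1_596 rises with PHKA1 in both muscles (r = 0.81 and 0.80), and PHKB BW974780.1_714 shows no clear relation (r = 0.02 and 0.16).

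PHKB BW974780.1_714 rose and fell with the ALDOA probe. The correlation was 0.29 in LM (rho 0.28, 87 pigs, adjusted permutation p of 0.019 and 0.025) and 0.46 in SM (rho 0.41, 78 pigs, adjusted permutation p of 0.000258 and 0.000689). Without the 2 farthest pigs it was 0.27 and 0.43. With slide means subtracted it was 0.50 in SM (adjusted permutation p of 0.000129) and 0.15 in LM (adjusted permutation p of 0.325), so in LM the relation did not hold within slides. With failing spots kept it was 0.14 in LM (adjusted permutation p of 0.272). ALDOA did not rise with the PHKA1 probes. In LM its r with PHKA1 AW670614.1_232 was -0.29 (rho -0.29, 86 pigs, adjusted permutation p of 0.021 and 0.025, -0.25 without the 2 farthest pigs at an adjusted p of 0.059, and -0.37 with slide means subtracted). That value was -0.05 after quantile normalization and -0.20 with failing spots kept, neither past the threshold (adjusted permutation p of 0.715 and 0.145). In LM its r with the other 2 PHKA1 probes was -0.19 and -0.04. In SM the 3 values were between 0.01 and 0.13. After quantile normalization the LM value for PHKA1 CA779886.1_993 turned from -0.04 to 0.52.

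How far the PYGM probe varied with the PHKA1 probes depended on the adjustment. In SM it correlated with PHKA1 CA779886.1_993 at r of 0.36 (rho 0.38, 89 pigs, adjusted permutation p of 0.00205 and 0.00156) and with PHKA1 AW670614.1_232 at r of 0.27 (rho 0.28, 89 pigs, adjusted permutation p of 0.025 and 0.024), and with slide means subtracted at 0.44 and 0.38. Without the 2 farthest pigs the values were 0.36 and 0.26. After quantile normalization the first of these was 0.18 (adjusted permutation p of 0.177). In LM the 3 PHKA1 probes gave r between -0.16 and 0.18, none past an adjusted p of 0.05. Adjusted for the index of C-rich probes, PYGM had r of 0.45, 0.35 and 0.53 with the 3 PHKA1 probes in SM (adjusted permutation p of 0.00261 or less). In LM the index-adjusted values were 0.25, 0.04 and 0.32, of which the first and the last passed (adjusted permutation p of 0.038 and 0.00651). Of all probes, 11.9% in LM and 19.5% in SM had an r of 0.3 or more with PYGM.

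PCK1 went against the PHKA1 probes in LM, with r of -0.34, -0.41 and -0.36 (rho -0.28, -0.29 and -0.31, 76 to 77 pigs, adjusted permutation p of 0.00084 to 0.008 for r and 0.021 to 0.040 for rho). Without the 2 farthest pigs they were -0.27 to -0.31, with adjusted permutation p up to 0.054, and with slide means subtracted -0.27 to -0.44, with p up to 0.118. In SM the values were between -0.19 and -0.09 and none passed. PCK1 rose with ALDOA in LM (r 0.33, rho 0.34, 77 pigs, adjusted permutation p of 0.00861 and 0.010, 0.27 without the 2 farthest pigs, 0.31 with slide means subtracted), a relation that quantile normalization turned to -0.063. Without the 2 farthest pigs its adjusted permutation p was 0.051, and with failing spots kept r was 0.23 (adjusted permutation p of 0.078). With PYGM it had an r of 0.32 in SM (rho 0.33, 90 pigs, adjusted permutation p of 0.00656 and 0.0075, 0.28 without the 2 farthest pigs, 0.25 with slide means subtracted at an adjusted p of 0.051). Of all probes, 18.5% in LM and 12.5% in SM had an r of 0.3 or more with PCK1. The share with negative values of that size was not counted.

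**Figure D4:**
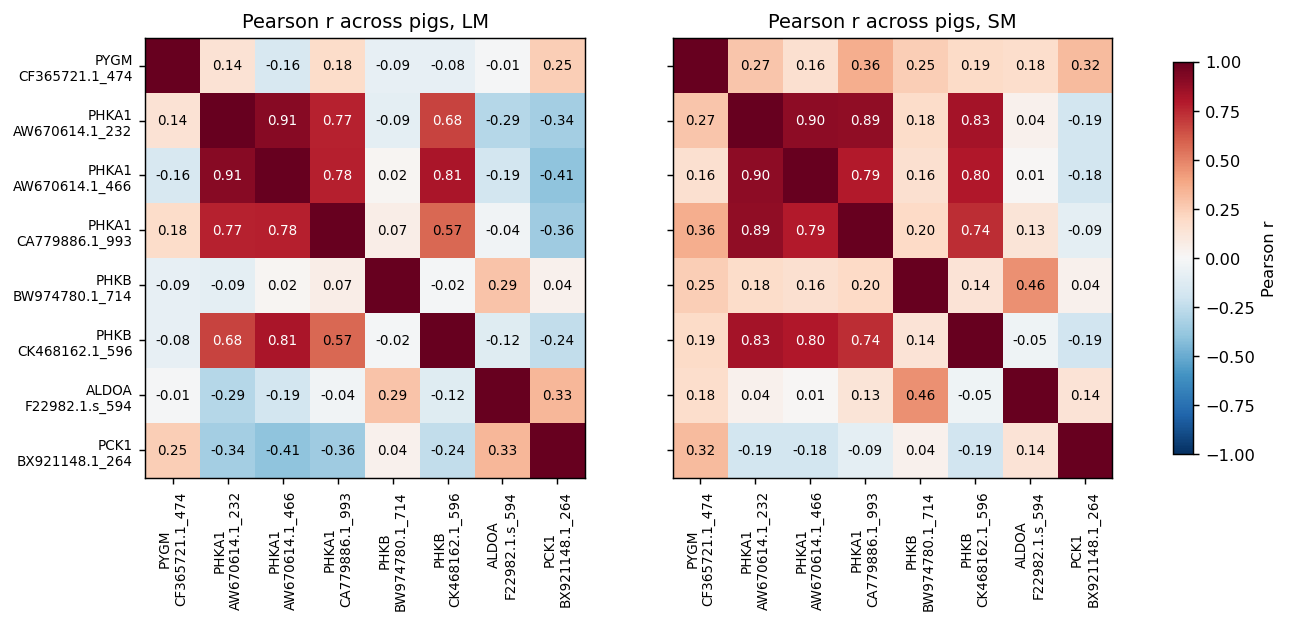
Pearson r across pigs between the log2 signals of the 8 probes in LM (left) and SM (right); each cell is 1 pair, red is positive and blue negative. The PHKA1 probes and PHKB CK468162.1_596 form the dark red block, at 0.57 to 0.91 in LM and 0.74 to 0.90 in SM.

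PCK1 moved with a property of the array. It correlated with the index of C-rich probes at r of 0.64 in LM (rho 0.58, 77 arrays) and 0.72 in SM (rho 0.69, 90 arrays). Both had an adjusted permutation p of 6.4e-05 for r and 0.000107 for rho, over 32 tests of the 8 probes with this index and with the median signal of the array. Within slides the values were 0.89 and 0.72, and without the 2 farthest arrays 0.58 and 0.68. PYGM also rose with the index, at r of 0.51 in LM (rho 0.48, adjusted permutation p of 6.4e-05 and 0.00016, 0.48 within slides and without the 2 farthest arrays) and 0.40 in SM (rho 0.37, adjusted permutation p of 0.00048 and 0.00267, 0.43 within slides, 0.41 without the 2 farthest arrays). PHKA1 AW670614.1_466 and PHKB CK468162.1_596 fell with it in LM, both at r of -0.38 (rho -0.32 and -0.34, 89 to 90 arrays, adjusted permutation p of 0.00119 and 0.00124 for r and of 0.00931 and 0.00553 for rho, -0.45 and -0.41 within slides, -0.28 and -0.31 without the 2 farthest arrays). In SM, PHKA1 AW670614.1_466 (r -0.31, rho -0.32), PHKA1 AW670614.1_232 (r -0.25, rho -0.26) and PHKB CK468162.1_596 (r -0.25, rho -0.25) also fell with it over 89 arrays. Their adjusted permutation p was 0.014, 0.043 and 0.043 for r and 0.00931, 0.034 and 0.038 for rho, and r was -0.28, -0.23 and -0.21 without the 2 farthest arrays. Within slides it was -0.28, -0.22 and -0.21, and PHKA1 AW670614.1_232 and PHKB CK468162.1_596 did not pass (adjusted permutation p of 0.080 and 0.128).

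With the median signal of the array, PYGM had an r of -0.53 in LM (rho -0.53, adjusted permutation p of 6.4e-05 and 0.000107, -0.52 without the 2 farthest arrays, -0.34 within slides) and -0.42 in SM (rho -0.42, adjusted permutation p of 6.4e-05 and 0.000384, -0.46 without the 2 farthest arrays, -0.57 within slides), over 90 arrays each. Of the other probes, PHKA1 AW670614.1_232 and CA779886.1_993 in SM (r -0.29 and -0.25) and PHKB BW974780.1_714 in LM (r 0.27) passed (rho -0.32, -0.27 and 0.26, adjusted permutation p of 0.019, 0.044 and 0.028 for r and 0.00931, 0.030 and 0.034 for rho, and r of -0.30, -0.27 and 0.27 without the 2 farthest arrays), none of them within slides. Adjusted for the index within each muscle, the PCK1 values with the PHKA1 probes in LM were -0.22 to -0.33, of which that with AW670614.1_466 no longer passed (adjusted permutation p of 0.109), and that with PYGM in SM was 0.05 (adjusted permutation p of 0.810). The part of base composition in these values was not tested further.

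ALDOA, the bright glycolytic member, stood with probes that share its sequence. The comparison was made after its nearest probes had been seen, and is given without a test. Of the 43 probes with a 12-base word of the ALDOA probe on the same strand, 26 passed the filter on dim spots, 3 of them with a gene name. SETD5 and RBL1 were higher in LM by 2.04 and 1.88, and CABC1 was higher in SM (-0.69). Of these 26, 24 were called higher in LM and 2 higher in SM, against 35.7% and 47.7% of all probes, with a median LM minus SM difference of 1.91. Their median r with the ALDOA probe was 0.53 in LM and 0.85 in SM, and 22 and 23 of the 26 had an r of 0.3 or more, against 9.04% and 8.89% of all probes. All 46 probes with such a word on the opposite strand were tested. Of those, 5 were called higher in LM and 39 higher in SM, with a median difference of -0.39 and a median r of -0.13 in LM and -0.09 in SM. In LM 10 of the 46 had an r of 0.3 or more with ALDOA, and in SM none did.

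The 3 probes most like ALDOA among all tested had no gene name here, and are shown so that their sequences can be set beside it. Their r with ALDOA was 0.74, 0.74 and 0.72 in LM and 0.92, 0.89 and 0.90 in SM, and they were higher in LM by 1.68, 1.71 and 1.40. Capitals mark the bases that lie in 8-base words of the ALDOA probe.
AJ666808.1_151: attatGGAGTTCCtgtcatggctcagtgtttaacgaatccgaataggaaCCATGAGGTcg
F22999.1.s_1311: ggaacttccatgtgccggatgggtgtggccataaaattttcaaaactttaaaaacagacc
BQ602826.1_229: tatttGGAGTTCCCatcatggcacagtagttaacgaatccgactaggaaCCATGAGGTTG
The first and the last hold words of ALDOA at both ends, and F22999.1.s_1311 holds none. Pig genomes carry many copies of short interspersed elements, and whether the shared words belong to one was not tested, since no repeat sequences were used here.

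**Figure D5:**
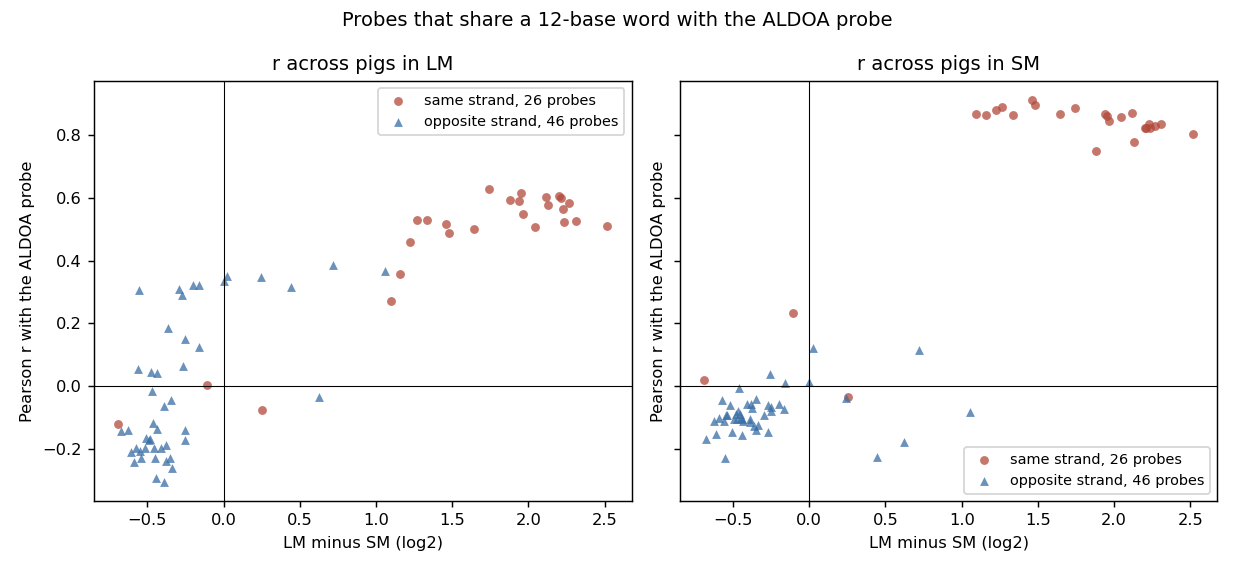
LM minus SM difference (log2, x axis) and Pearson r with the ALDOA probe across pigs (y axis; LM left, SM right) for the tested probes that share a 12-base word with it; circles are the 26 same-strand probes and triangles the 46 opposite-strand probes. Most circles lie at the upper right, around a median difference of 1.91 and a median r of 0.85 in SM, while the triangles lie around -0.39 and -0.09.

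Each member was also set beside the named genes that varied most like it, by the lower of its r in LM and in SM. For 2 of the 3 PHKA1 probes that gene was PHKB, through CK468162.1_596 (likeness 0.80 and 0.68). For PHKA1 CA779886.1_993 it was NEK7 (0.62), a mitotic kinase that also acts in the inflammasome, followed by PHKB (0.57). BPGM came after DCAF6 for PHKA1 AW670614.1_232 (0.53). DCAF6, a nuclear receptor cofactor, was among the 3 for PHKA1 AW670614.1_232, PHKA1 AW670614.1_466 and PHKB CK468162.1_596, at 0.61 to 0.66. These values are descriptions over 90 pigs at most, on arrays that the probes share.

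The remaining members had neighbours of other kinds. PHKB BW974780.1_714 was most like RBM25 (0.55), a splicing factor, USP53 (0.51) and REV3L (0.50), a DNA polymerase subunit that was higher in LM by 2.92. The named probes most like ALDOA were AGPAT5 (0.65), an acyltransferase, DAPK1 (0.62), a protein kinase, and UBE2E1 (0.61), a ubiquitin-conjugating enzyme, all higher in LM by 1.76 to 1.84. PYGM was most like NFATC4 (0.63), a calcium-regulated transcription factor, FLCN (0.59) and C17ORF101 (0.59), and PCK1 like DGKI (0.83), SELM (0.80) and DMKN (0.76). None of these neighbours is a gene of the glycogen or glycolysis lists.

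Scores of fibre and cell type markers were compared with the 8 probes in each muscle, a score being the mean of the standardized values of the named probes of a list. Of 112 correlations, 6 in LM and 10 in SM passed an adjusted permutation p of 0.05, and 9 in all passed with slide means subtracted. The share of all tested probes that would pass with these scores was not counted. The values below therefore do not set the members apart from other probes. The fast fibre score held 4 probes (MYH1, MYL1, PVALB and CKM). Other listed fast fibre genes, among them MYH4, ACTN3, ATP2A1 and MYLPF, had no named probe here. MYL1 and CKM were higher in LM (0.87 and 0.30), and PVALB and MYH1 were higher in SM (-1.22 and -0.57). The PYGM probe, whose orientation was not determined, rose with that score. The correlation was 0.50 in LM (rho 0.46, 90 pigs, adjusted permutation p of 0.00112 for both, 0.49 without the 2 farthest pigs) and 0.42 in SM (rho 0.39, 90 pigs, adjusted permutation p of 0.00261 and 0.00336, 0.39 without the 2 farthest pigs). Within slides both values were 0.51. After quantile normalization they were 0.29 and 0.12, and the second no longer passed (adjusted permutation p of 0.539). Adjusted for the index of C-rich probes, the LM value was 0.42 (adjusted permutation p of 0.00448). In SM the highest index-adjusted r of any of the 8 probes with any score was 0.32.

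The PHKA1 probes fell as the leukocyte score (PTPRC, CD14, CD68 and C1QC) rose. The values kept their sign but missed the threshold in LM with slide means subtracted, and in SM after adjustment for the index of C-rich probes. In LM the 3 PHKA1 probes and PHKB CK468162.1_596 had r of -0.38, -0.36, -0.40 and -0.29 (rho -0.39, -0.35, -0.33 and -0.30, 89 to 90 pigs, adjusted permutation p of 0.00266 to 0.047 for r and 0.00336 to 0.038 for rho). Without the 2 farthest pigs these were -0.30 to -0.35, and with slide means subtracted -0.17 to -0.25, none past an adjusted permutation p of 0.05. After quantile normalization PHKA1 CA779886.1_993 was at -0.11 and PHKB CK468162.1_596 at -0.23, neither past the threshold (adjusted permutation p of 0.539 and 0.136). In SM the 3 PHKA1 probes had r of -0.34 to -0.35 (rho -0.36, 89 pigs, adjusted permutation p of 0.00986 to 0.010 for r and 0.00722 to 0.008 for rho), -0.35 to -0.37 without the 2 farthest pigs. Within slides they were -0.34 to -0.35, past the threshold at 0.034. Adjusted for the index of C-rich probes all 3 were -0.28 and none passed (adjusted permutation p of 0.070). PHKB CK468162.1_596 in SM had an r of -0.27 (rho -0.30, 89 pigs, adjusted permutation p of 0.060 and 0.033).

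PHKB BW974780.1_714 fell in SM with the leukocyte score (r -0.35, rho -0.31, 78 pigs, adjusted permutation p of 0.012 and 0.042, -0.36 within slides, and -0.28 without the 2 farthest pigs at an adjusted p of 0.097) and with the fibroblast score (r -0.43, rho -0.43, adjusted permutation p of 0.00266 and 0.00252, -0.45 without the 2 farthest pigs, and -0.29 within slides at an adjusted p of 0.126). With failing spots kept both were -0.25 to -0.26 (adjusted permutation p of 0.092). ALDOA had an r of -0.31 with the leukocyte score in SM (90 pigs, adjusted permutation p of 0.026, -0.32 within slides), but neither rho (-0.23, adjusted p 0.152) nor r without the 2 farthest pigs (-0.25, adjusted p 0.097) passed, nor did r adjusted for the index of C-rich probes (-0.27, adjusted p 0.076).

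With the adipocyte score (ADIPOQ, PLIN1, CIDEC and CFD), PCK1 had an r of -0.04 in LM (rho -0.02, 77 pigs) and 0.10 in SM (rho 0.06, 90 pigs), with adjusted permutation p of 0.912 and 0.638. It rose with the leukocyte score in LM (r 0.33, rho 0.30, 77 pigs, adjusted permutation p of 0.026 and 0.053, 0.35 without the 2 farthest pigs, 0.08 within slides) and in SM (r 0.39, rho 0.43, 90 pigs, adjusted permutation p of 0.00266 and 0.00112, 0.40 without the 2 farthest pigs, 0.25 within slides). Neither passed within slides (adjusted permutation p of 0.639 and 0.177). In SM it also rose with the fast fibre score (r 0.41, rho 0.43, 90 pigs, adjusted permutation p of 0.00261 and 0.00112, 0.36 without the 2 farthest pigs, 0.41 within slides) and with the red blood cell score (r 0.39, rho 0.38, 90 pigs, adjusted permutation p of 0.00266 and 0.00336, 0.43 without the 2 farthest pigs, 0.39 within slides). The red blood cell score held 3 probes of 1 gene, HBA2. Adjusted for the index of C-rich probes, the red blood cell value in SM turned to -0.17, the fast fibre value was 0.24 and the leukocyte value 0.22, none past the threshold (adjusted permutation p of 0.360, 0.121 and 0.183). The fast fibre value was 0.09 after quantile normalization (adjusted permutation p of 0.615). The leukocyte value in LM was 0.26 after quantile normalization and 0.22 with failing spots kept (adjusted permutation p of 0.114 and 0.205).

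The signal of a pig in LM was compared with its signal in SM. Over the 8 probes, r between LM and SM lay between -0.09 and 0.28, and none passed an adjusted permutation p of 0.05, while 2 had an unadjusted p below 0.05. The highest were PCK1 (r 0.28, rho 0.22, 77 pigs, adjusted permutation p of 0.057 and 0.214, 0.30 without the 2 farthest pigs) and PHKA1 CA779886.1_993 (r 0.27, rho 0.21, 89 pigs, adjusted permutation p of 0.057 and 0.214, 0.28 without the 2 farthest pigs). Both passed without the 2 farthest pigs (adjusted permutation p of 0.033) and with failing spots kept (0.045). Subtraction of slide means lowered them to 0.07 and 0.13.

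Correlations among the members were then compared between the muscles by swapping the muscle labels within pigs. None of the 28 pairs differed past an adjusted p of 0.05 (4 had an unadjusted p below 0.05). The largest difference was for PHKA1 AW670614.1_232 with ALDOA, at -0.42 (LM minus SM of r, 85 pigs, permutation p of 0.00488, adjusted 0.135). The pairs that passed in one muscle and not in the other are therefore not shown to differ between LM and SM.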

How the data were processed

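Each muscle of 90 pigs was hybridized to 1 single-colour (Cy3) Agilent array. The authors deposited the scanner output of every array, in which the processed signal is an intensity on a linear scale with background subtracted and no normalization between arrays. They also deposited a table of 6903 probes on the natural log scale, with 1 constant per array subtracted. The SM arrays and 46 LM arrays were extracted with Feature Extraction 9.5.3.1, the other 44 with 9.5.1.1.

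Control spots (546 of 15744) were left out. The log2 of the processed signal was taken. A spot failed if it was saturated, non-uniform or too dim against its background, and a probe was dropped if over 50% of its spots failed in LM or in SM. Each array was centred on its median, failing spots became missing, and 7460 values beyond 3 SD of a probe's mean were discarded. In all, 10987 probes were tested, and the precision of a mean is limited by how many arrays had a usable spot. The muscles were compared with limma 3.58.1 in R 4.3.3, adjusted by Benjamini-Hochberg over all probes; the study's model also held carcass weight, sex and the batches of slaughter and hybridization, which the labels do not give. On simulated data (10000 probes, 200 changed) 97.5% of the changed probes were recovered, all in the true direction, and 4.41% of calls were false. The simulated noise had no effects of slide, scan day, pig or family, so 4.41% is not the false share of the calls made here. Correlations across pigs used NumPy 2.4.6 in Python 3.11.15 with 100000 permutations.

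Pigs are paired by the animal number in the labels. Across probes, the deviations of a pig's 2 muscles had a median r of 0.05, above 0.1 in 37 of 90 pigs, and the pig as a block was an alternative. Alternatives covered centring, quantile normalization, normexp, kept failing spots, no filter, no removal of outlying values, slide and scan day as random blocks, the index of C-rich probes, the deposited table, the software version, rank correlation and the 2 farthest pigs. The named probes are the 8 members, the listed pathway and marker genes, and the 3 named probes most like each member. The values of 1 named gene are not reported here. The members and lists were chosen with earlier results of these data known, and the word search and the correlations with array properties after the values were seen. The supplementary lists served only to name probes, and the copy of the list for SM was partial, so other probes of these genes may be on the array unnamed.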

Additional observations from a re-analysis of the deposited data

How the results depend on the processing

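All 8 members stayed higher in LM under each of the 12 alternatives. They came from the list of probes higher in LM on these same arrays, so their direction is no independent support. With the replicate block (pig) the median member difference was 0.59, as without it, and 9159 of 10987 probes were called against 9169. With slide and scan day as random blocks 8629 and 7991 of the same probes were called, and with the C-rich index as a covariate 8142. The SEs given above take no account of slide or scan day. With scan day as a block the SE was 0.073 against 0.045 for PYGM, and 0.058 against 0.036 for ALDOA. The deposited table, which holds fewer probes, gave 6027 calls. PCK1 rose to 1.66 and PYGM to 0.56 when the C-rich index was a covariate, and PHKB BW974780.1_714 fell to 1.51 after normexp. Between muscles, 2 of 8 probes (PCK1 and PHKA1 CA779886.1_993) passed without the 2 farthest pigs and 2 with failing spots kept, against 0. After quantile normalization, 1 of 28 pairs differed between the muscles (PHKA1 AW670614.1_232 with PHKA1 CA779886.1_993, -0.31), the r of ALDOA with PCK1 in LM became -0.063, and that with PHKA1 CA779886.1_993 in LM became 0.52 from -0.04. Of the 16 marker correlations that passed, 9 also passed with slide means subtracted and 8 after adjustment for the C-rich index, under which 9 of all 112 passed and PCK1 with the red blood cell score in SM was -0.17. The causes were not tested. Of 448 alternative values for member pairs, 404 kept their direction and side of the threshold, 21 no longer passed, 21 newly passed and 2 reversed. Dim spots limit PHKB BW974780.1_714 in SM, and non-uniform spots PCK1 in LM.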

Other observations

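Among the 50 probes most like ALDOA by the lower of the r in LM and SM, 26 (52.0%) held an 8-base word of the ALDOA probe on the same strand, against 3.76% of all other probes tested. The word length and the number of probes were chosen after the data were examined, and no test was made.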
